A study of Mus musculus with 6 samples.

Results

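The nuclei described here are the endothelial and mural nuclei of blood vessels in single-nucleus RNA-seq of mouse frontal lobe. They were chosen from the UMI counts (UMIs are unique molecular identifiers, 1 per captured RNA molecule) of vessel marker genes, so the levels of those genes are a description and carry no test. A barcode was kept if it had at least 200 genes and at most 5% of its UMIs from mitochondrial genes. It was called endothelial if Cldn5, Flt1, Pecam1, Ly6c1 and Itm2a together gave at least 3 UMIs and at least 0.3% of its UMIs. It was called mural by the same limits on Rgs5, Vtn, Kcnj8, Abcc9, Higd1b, Acta2 and Myh11. Barcodes with more than 2 UMIs of the fibroblast genes Dcn, Col1a2 and Lum were left out. The rule found 98 nuclei among 34281 kept nuclei, from 39752 barcodes: 28 endothelial, 66 mural and 4 that passed both gates and were kept apart.

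The 6 libraries came from 1 mouse each, 3 of genotype SwDI/TKO (Trem2 knockout) and 3 of genotype SwDI/TWT (Trem2 wild type). Both groups carry the Tg-SwDI transgene, so the knockout is compared only on that background; the labels give no age. As background, Tg-SwDI mice express mutated human APP from a neuronal Thy1 promoter and deposit amyloid at small brain vessels, and TREM2 is a lipid-sensing receptor of microglia. The study asked how loss of Trem2 changes transcripts in this model.

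Brain endothelial cells line the vessels and form the blood-brain barrier, through tight junctions sealed by claudin-5, few transport vesicles and a dedicated set of nutrient carriers and drug efflux pumps. Mural cells sit outside them: pericytes on capillaries, smooth muscle cells on arteries and arterioles. Endothelial cells secrete PDGF-B, which recruits pericytes through the receptor PDGFRB, and both cell types share the basement membrane in which cerebral amyloid angiopathy forms.

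Vessel nuclei were few and shallow. SwDI/TKO replicates 1, 2 and 3 gave 10, 2 and 5 endothelial nuclei, and SwDI/TWT replicates 1, 2 and 3 gave 8, 0 and 3. The same libraries gave 20, 5 and 16 mural nuclei in SwDI/TKO mice, against 6, 9 and 10 in SwDI/TWT mice. The median total was 992.5 UMIs per endothelial nucleus (range 501 to 2709) and 795 UMIs per mural nucleus (range 512 to 3054), while the library medians of all other nuclei ran between 1479 and 5446.5 UMIs. Summed, there were 30639 endothelial and 65949 mural UMIs, against 112873490 in all other nuclei. SwDI/TKO replicate 1 gave 43.8% of the endothelial and 43.1% of the mural UMIs. Its counts came from another version of the counting program than the other 5 libraries.

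Other facts of the libraries bear on these counts. The files hold between 5220 and 8095 barcodes per library, where the study states 5700 to 8100 nuclei. The mitochondrial limit took 53 of 151 barcodes that passed a vessel gate (35.1%, from 6.06% in SwDI/TKO replicate 1 to 65.4% in SwDI/TWT replicate 2), against 13.7% of all barcodes with at least 200 genes. It took all 6 endothelial barcodes of SwDI/TWT replicate 2. Scrublet, a doublet caller, marked 1 member, a mural nucleus of SwDI/TWT replicate 2, and it was kept. Libraries shared 5 to 14 barcode sequences in pairs, none of them a member's. Over all kept nuclei, Trem2 reached 2.92, 14.6 and 7.92 CPM (UMI counts of the gene scaled to the same UMI total in every library) in SwDI/TKO libraries, against 30.7, 18.4 and 15.6 CPM in SwDI/TWT libraries. The labels do not describe the knockout allele, and why Trem2 UMIs remain in SwDI/TKO libraries was not tested. The members held 1 Trem2 UMI, in a mural nucleus of SwDI/TKO replicate 1.

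The endothelial gate rested on several genes. Flt1, a VEGF receptor, gave 172 UMIs in 25 of the 28 nuclei, and Cldn5, the tight junction claudin, gave 121 UMIs in 25 nuclei. Ly6c1 gave 60 UMIs in 17 nuclei, Itm2a 27 in 15, and the adhesion molecule Pecam1 18 in 13. Only 2 nuclei entered through 1 gene, 10 had 4 of the 5 genes and 6 had all 5. Just inside the limits, 1 nucleus had exactly 3 gate UMIs. Just outside, 18 barcodes had 3 or more gate UMIs but under 0.3% of their total, 15 of them in the deeply counted SwDI/TKO replicate 1.

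The mural gate rested mostly on Vtn, the gene of the matrix protein vitronectin. Vtn gave 485 UMIs, 77.7% of the mural gate UMIs, and was present in all 66 nuclei. Rgs5, a regulator of G-protein signalling, gave 46 UMIs in 23 nuclei. The potassium channel subunits Abcc9 and Kcnj8 gave 36 UMIs in 23 nuclei and 31 UMIs in 22 nuclei, and Higd1b 18 UMIs in 15 nuclei. The smooth muscle genes were nearly absent: Acta2 gave 7 UMIs in 1 nucleus and Myh11 gave 1 UMI in 1 nucleus. In 20 of the 66 nuclei Vtn was the only gate gene with a UMI. Just inside the limits, 6 mural nuclei had exactly 3 gate UMIs, and just outside, 5 barcodes had enough percent but 2 UMIs and 28 had 3 or more gate UMIs but under 0.3% of their total. The fibroblast limit took 9 further barcodes.

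Markers outside the gates were read apart from the gate genes, whose levels the rule fixed. Of 5 endothelial markers outside the gate (Cdh5, Tek, Emcn, Egfl7 and Slco1a4), endothelial nuclei had all 5, with 204 UMIs or 0.666% of their total, and mural nuclei 4, with 14 UMIs or 0.0212%. Of 5 pericyte markers outside the gate (Pdgfrb, Atp13a5, Ndufa4l2, Notch3 and Cspg4), endothelial nuclei had 0 UMIs, and mural nuclei had all 5, with 303 UMIs or 0.459%. Of those 303 UMIs, 285 lay in the 46 mural nuclei with a second gate gene (0.701% of their UMIs) and 18 in the 20 nuclei with Vtn alone (0.0712%). Of 7 smooth muscle markers outside the gate, mural nuclei had 4, with 28 UMIs, 14 of them of Tagln. The pericyte markers thus lay mainly in the 46 nuclei, and few in the 20 others. That split uses mural gate genes, with which these markers can vary. All 9 fibroblast markers, of which the rule capped Dcn, Col1a2 and Lum, were at 0 in endothelial nuclei. In mural nuclei 8 of 9 were detected with 93 UMIs. The 6 markers outside that cap gave 70 of these UMIs, with 5 detected. Of the 70, 59 lay in the nuclei with Vtn alone, which are described apart.

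**Figure D1:**
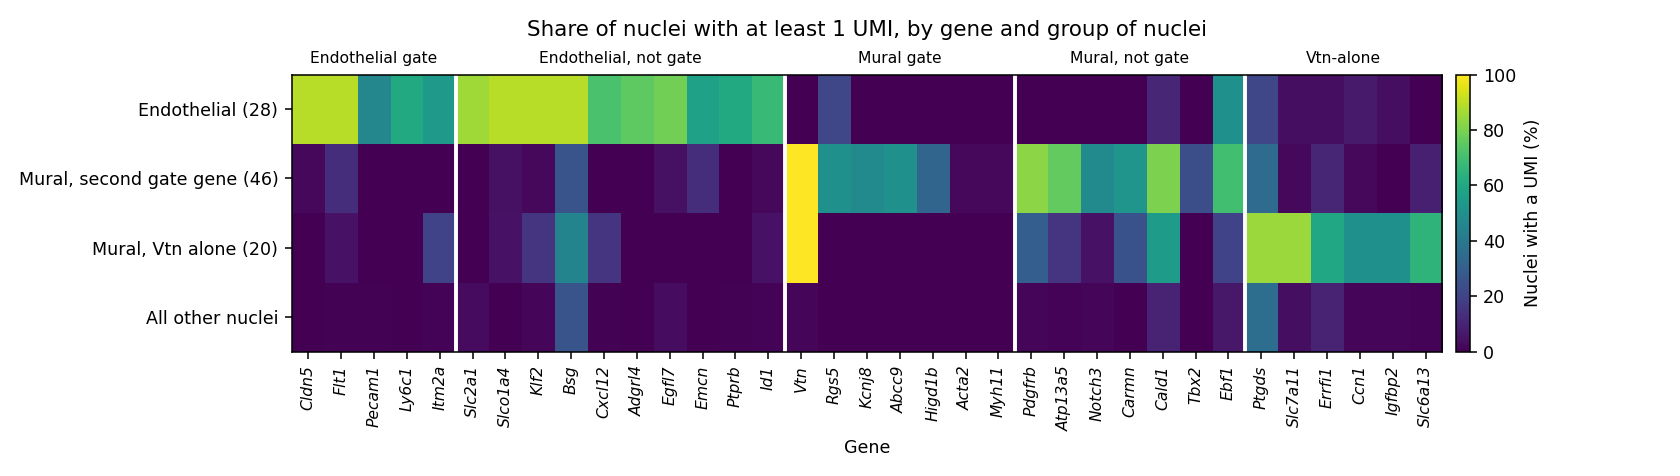
Share of nuclei with at least 1 UMI (colour, in percent) for marker and named genes (columns) in 28 endothelial nuclei, 46 mural nuclei with a second gate gene, 20 mural nuclei with Vtn alone and all other nuclei (rows). Endothelial genes fill the top row, Pdgfrb and Atp13a5 the second, and Ptgds and Slc7a11 the third. Columns under the gate headings follow from the selection. So do the zero cells of every mural gate gene but Vtn in the third row.

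Endothelial against mural sums were tested gene by gene with edgeR's quasi-likelihood test, with the library as a block and p-values adjusted over all genes tested. The nuclei were picked by their gate genes, so genes that vary with those genes from nucleus to nucleus share in the selection, and the p-values speak only to the spread between libraries. With edgeR's default filter 87 genes were tested: 12 were higher in endothelial nuclei (13.8% of those tested) and 17 were lower (19.5%). A wider test took all 2086 genes with at least 10 UMIs over both sums, and called a gene only if it passed under both scalings used (total UMIs, and TMM, which scales by the trimmed mean of ratios). It called 148 genes higher in endothelial nuclei (7.09% of those tested) and 152 lower (7.29%). Its filter adds both sums, so a gene seen in 1 group alone was tested only through the group where it was high. Tallies and medians of the gene lists below share in that choice and are descriptions. The 5 libraries that held both kinds of nuclei carry this contrast. Without SwDI/TKO replicate 1, only 57 genes reached the default filter and 16 were called. In the wider test under total-UMI scaling alone, which called 344 genes with all libraries, 875 genes were then tested and 117 called. Of the 148 genes called higher in endothelial nuclei under both scalings, 76 were still tested without that library and 70 still called, and of the 152 called lower, 80 and 33.

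**Figure D2:**
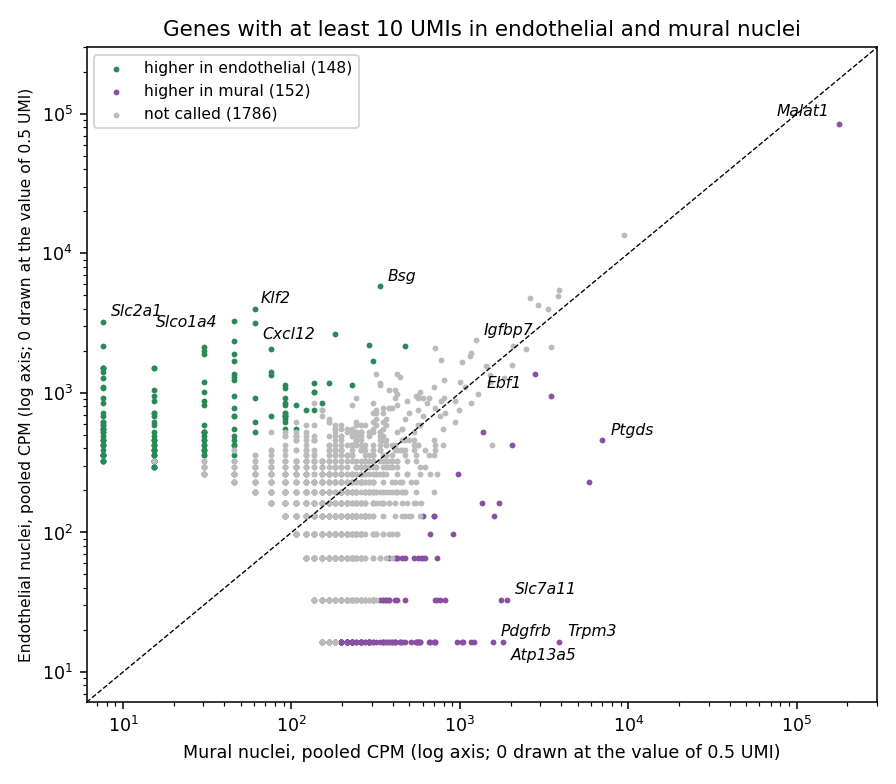
Pooled CPM in endothelial nuclei (y axis, log scale) against mural nuclei (x axis, log scale) for the 2086 genes with at least 10 UMIs; genes with 0 UMIs are drawn at the value of 0.5 UMI. Green points are the 148 genes called higher in endothelial nuclei, purple points the 152 called higher in mural nuclei, and the dashed line marks equal CPM; Slc2a1 lies on the left edge with 0 mural UMIs, and Pdgfrb, Atp13a5 and Trpm3 on the bottom row with 0 endothelial UMIs.

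Barrier transport genes were higher in endothelial nuclei. Of 25 listed, 17 could be tested, and 11 passed higher and 0 lower in the wider test, with a median log2 ratio of 3.11 on the list, against -0.06 over all genes tested. Genes without mural UMIs, such as Slc2a1 and Slco1c1, reached the filter through endothelial nuclei alone. Slc2a1, the glucose carrier GLUT1, had 54, 2 and 8 UMIs in endothelial nuclei of SwDI/TKO replicates 1 to 3, and 30 and 5 UMIs in those of SwDI/TWT replicates 1 and 3. It had 0 UMIs in mural nuclei of all 6 libraries. Set against a floor of 3 UMIs over the pooled mural sum, it was at least 71.0-fold higher in endothelial nuclei (edgeR adjusted p = 5.04e-15). The organic anion carrier Slco1a4 had 101 UMIs in endothelial nuclei and 3 in mural nuclei, a ratio of CPM of 72.5 with a counting interval of 24.1 to 357. Its relative Slco1c1, a thyroid hormone carrier, had 39 endothelial and 0 mural UMIs.

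The efflux pumps went the same way. Abcb1a, the gene of P-glycoprotein, had 28 UMIs in 16 of 28 endothelial nuclei and 0 in mural nuclei, at least 20.1-fold higher in endothelial nuclei. Abcg2 had 52 endothelial and 3 mural UMIs, and all 3 mural UMIs came from nuclei with Vtn alone. Among amino acid and lipid carriers, Slc7a5 had 29 endothelial UMIs and 1 mural UMI, and Mfsd2a, the lipid carrier that restrains transcytosis, had 12 and 0. The 6 tested genes that were not called were Slc3a2, Slc22a8, Tfrc, Insr, Lrp1 and Car4. All 11 calls held when the mural nuclei with Vtn alone were left out. Without SwDI/TKO replicate 1, Abcc4, Mfsd2a and Slc16a1 fell under the filter.

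Bsg, which encodes basigin, a chaperone of monocarboxylate carriers, was seen in every group of nuclei but differed in level. It had 178 UMIs in endothelial nuclei and 22 in mural nuclei. Per library it reached 2606, 2569 and 4559 CPM in endothelial nuclei of SwDI/TKO replicates 1 to 3, and 10588 and 9229 CPM in those of SwDI/TWT replicates 1 and 3. The log2 fold change, endothelial over mural, was 3.63 ± 0.40 (SE, edgeR adjusted p = 5.34e-17).

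Receptors of vessel growth and stability were higher in endothelial nuclei in 10 of 11 tested genes and lower in 0. Adgrl4, an adhesion G-protein-coupled receptor, had 67 UMIs in 21 of 28 endothelial nuclei and 0 in mural nuclei. The phosphatase Ptprb, which acts on the TIE2 receptor, had 46 and 0 UMIs, the sphingosine receptor S1pr1 34 and 0, and the VEGF receptor Kdr 18 and 0. The sialomucin Emcn was less exclusive, with 25 UMIs in endothelial and 7 in mural nuclei, a ratio of CPM of 7.69. Nrp2 was the tested gene that was not called. Egfl7, a secreted endothelial protein outside this list, had 58 and 2 UMIs and was called with 87 genes tested (edgeR adjusted p = 2.27e-10).

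Among the 8 tested endothelial transcription factors, 6 were higher in endothelial nuclei and 0 lower. Klf2, a factor induced by blood flow, had 45, 4 and 19 UMIs in endothelial nuclei of SwDI/TKO replicates 1 to 3 and 48 and 7 in those of SwDI/TWT replicates 1 and 3. Its 4 mural UMIs were scattered over 4 libraries. Klf2 gave a log2 fold change, endothelial over mural, of 5.69 with an SE of 0.66 (edgeR adjusted p = 9.11e-16). Foxq1 had 16 endothelial and 2 mural UMIs. Mecom had 46 and 0 UMIs, of which 36 were in SwDI/TKO replicate 1. Id1, a target of BMP signalling, had 61 and 2 UMIs. Ets1 and Foxc1 were not called.

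Promoters of Emcn, Egfl7 and Atp13a5 are printed to show the motif search. ETS factors bind the core AGGAAG and act widely in endothelium. On either strand the core occurred in 39.6% of 177 RefSeq promoters of genes higher in endothelial nuclei, 30.4% of 171 promoters of genes lower, 33.1% of 2240 promoters of all genes tested and 35.4% of all 32851 promoters (250 bases before to 50 after each start). The CArG box, the site of serum response factor, occurred in 1.13%, 2.92%, 1.65% and 1.63% of the same sets. These shares lie close together, and a match describes letters, not a bound site. The sequences are from RefSeq on GRCm38.p6, with the core in capitals on either strand. Emcn lies at chr3:137340828-137341127 on the plus strand, Egfl7 at chr2:26583615-26583914 on the plus strand and the mural gene Atp13a5 at chr16:29378683-29378982 on the minus strand.
Emcn: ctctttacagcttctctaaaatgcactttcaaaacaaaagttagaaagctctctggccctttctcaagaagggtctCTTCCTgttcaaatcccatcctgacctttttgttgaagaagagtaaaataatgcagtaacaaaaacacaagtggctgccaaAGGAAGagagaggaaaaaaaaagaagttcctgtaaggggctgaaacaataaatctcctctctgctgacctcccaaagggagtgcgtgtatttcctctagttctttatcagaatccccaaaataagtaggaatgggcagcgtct
Egfl7: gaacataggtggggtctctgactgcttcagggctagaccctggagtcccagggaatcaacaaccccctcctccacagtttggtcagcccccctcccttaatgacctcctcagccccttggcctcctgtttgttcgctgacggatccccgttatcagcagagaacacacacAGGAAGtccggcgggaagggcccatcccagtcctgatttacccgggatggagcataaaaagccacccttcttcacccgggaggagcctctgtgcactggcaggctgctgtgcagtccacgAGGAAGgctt
Atp13a5: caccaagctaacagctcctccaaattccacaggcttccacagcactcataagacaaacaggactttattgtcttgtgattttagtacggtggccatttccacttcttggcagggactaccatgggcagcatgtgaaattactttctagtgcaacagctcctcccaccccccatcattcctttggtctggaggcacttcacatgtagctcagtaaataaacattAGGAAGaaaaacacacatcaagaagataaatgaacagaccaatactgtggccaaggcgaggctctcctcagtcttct
Emcn and this Egfl7 promoter hold 2 cores each and Atp13a5 holds 1, so the core is not limited to the endothelial genes shown. All printed promoters hold the core, which is not so for every endothelial gene searched. Flt1 holds 2 and Slco1a4 1, while Slc2a1, Klf2, Cxcl12 and Cldn5 hold 0. Other Egfl7 promoters hold 3 and 0.

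Genes of single vessel segments rested on few UMIs. Of 11 tested capillary genes 7 were higher in endothelial nuclei, of 4 arterial genes 3, and of 5 venous genes 2, with 0 lower in each list. These lists share genes with each other and with the transport list. Cxcl12, a chemokine of arterial and capillary endothelium, had 12, 3 and 17 UMIs in endothelial nuclei of SwDI/TKO replicates 1 to 3, and 44 and 21 in those of SwDI/TWT replicates 1 and 3. All 4 of its mural UMIs lay in nuclei with Vtn alone. The venous list was thin: 22 of 22 endothelial UMIs of Il1r1, the interleukin-1 receptor, came from 4 nuclei of SwDI/TKO replicate 1.

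Few junction and Wnt genes were called, and many of those listed were too rare to test. Of 17 listed junction genes 9 could be tested. Esam and Ctnna1 were higher in endothelial nuclei and Cdh2, the cadherin of pericyte contacts, was lower. Cdh5 passed under total-UMI scaling but not under TMM (edgeR adjusted p = 0.0617). Without the nuclei with Vtn alone, under total-UMI scaling, 4 of 8 tested junction genes were higher (Cdh5, Esam, Ctnna1 and Afdn) and 1, Cdh2, was lower. Afdn also passed with the stricter gate (edgeR adjusted p = 0.00432). Esam had 21 UMIs in endothelial and 3 in mural nuclei. Ctnna1 and Cdh2 missed the threshold without SwDI/TKO replicate 3 and without SwDI/TWT replicate 1, at edgeR adjusted p between 0.0578 and 0.0743, and Cdh2 also with the nuclei of both gates assigned (edgeR adjusted p = 0.204). Of 18 listed Wnt genes 7 could be tested, and Lef1, a nuclear effector of beta-catenin, was higher, with 21 and 6 UMIs. That call was lost without SwDI/TKO replicate 1, which held 14 of the 21 UMIs (edgeR adjusted p = 0.163).

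Some genes of flow and inflammation were also higher in endothelial nuclei, though most of those listed were too rare to test. Over all genes tested, 7.09% were called higher and 7.29% lower. Of 26 listed vasoactive and flow genes 5 could be tested. Nostrin, Klf2, Klf4 and Ramp2 were higher and Ptgds was lower. Ramp2, a partner of the adrenomedullin receptor, had 65 endothelial and 2 mural UMIs. Of 28 listed inflammation and antigen presentation genes 8 could be tested. Of these, 6 were higher and 0 lower: Il1r1, Nfkbia, Cxcl12, Ly6a, Ly6e and B2m. Klf2, Cxcl12 and Il1r1 are also in lists above, and the endothelial UMIs of Il1r1 came from SwDI/TKO replicate 1 alone. Ly6a, a surface protein of mouse endothelium, had 43 and 0 UMIs, and B2m, the light chain of class I molecules, 14 and 3. B2m missed the threshold without SwDI/TKO replicate 1 (edgeR adjusted p = 0.0534).

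Pericyte receptor and channel genes were lower in endothelial nuclei, that is, higher in mural nuclei. Of 33 listed, 23 could be tested, and 14 were lower in endothelial nuclei and 1 higher, with a median log2 ratio of -1.48, against -0.06 over all genes tested. Genes without endothelial UMIs reached the filter through mural nuclei alone. The 1 gene that was higher in endothelial nuclei was Pdgfb, the PDGF-B ligand, with 10 and 1 UMIs.

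Pdgfrb, the receptor for that ligand, had 0 UMIs in endothelial nuclei. Mural nuclei held 30, 11 and 33 UMIs in SwDI/TKO libraries and 7, 9 and 14 in SwDI/TWT libraries. It was at least 16.1-fold lower in endothelial nuclei (edgeR adjusted p = 6.02e-10). Pdgfrb reached the filter through mural nuclei alone, and it can vary with the mural gate genes. Its p-value therefore speaks only to the spread between libraries. Atp13a5, a P-type ATPase known as a pericyte marker in mouse brain, had 0 UMIs in endothelial and 119 in mural nuclei, at least 18.4-fold lower in endothelial nuclei. Ligand and receptor thus lay in opposite groups of nuclei, with Pdgfb resting on 10 UMIs.

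Rarer pericyte genes followed. Notch3, the receptor mutated in the hereditary small vessel disease CADASIL, had 0 endothelial and 31 mural UMIs, and Carmn, a long noncoding RNA of mural cells, 0 and 47. Slc6a20a, a proline carrier, had 0 and 69 UMIs, of which 37 lay in nuclei with Vtn alone. Leaving those nuclei out, 15 of 21 tested genes of the list were lower in endothelial nuclei and 1 higher, under total-UMI scaling alone. Without SwDI/TKO replicate 1 more calls were lost. P2ry14, Slc19a1, Ndufa4l2 and Art3 missed the threshold, at edgeR adjusted p between 0.0586 and 0.153, and Mcam, Cacna1c and Pdgfb fell under the filter. Slc6a13 fell under the filter without the nuclei with Vtn alone, which held 29 of its 36 mural UMIs.

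Contractile and matrix genes gave partial lists. Of 6 tested contractile genes, Tagln, Myl9, Tpm1 and Cald1 were lower in endothelial nuclei and 0 higher. Cald1, an actin-binding caldesmon, had 4 endothelial and 105 mural UMIs. Tagln and Myl9 rested on 14 and 15 mural UMIs and missed the threshold without SwDI/TWT replicate 1, at edgeR adjusted p = 0.0876 and 0.0931. Of 23 tested basement membrane and matrix genes, the laminin chains Lama1, Lama2, Lamc1 and Lamc3 were lower in endothelial nuclei, and Fn1, fibronectin, and the integrin Itga6 were higher. Over all genes tested, 7.29% were called lower and 7.09% higher. Every called matrix gene, and also Tagln and Myl9, fell under the filter of the wider test without SwDI/TKO replicate 1. Lamc3 missed the threshold without SwDI/TWT replicate 1 (edgeR adjusted p = 0.0522). Lama1 and Tagln fell under the filter without the nuclei with Vtn alone, which held 8 of the 14 mural UMIs of Tagln. Collagen IV chains were not called: Col4a2 had 10 endothelial and 6 mural UMIs (edgeR adjusted p = 0.0912), Col4a1 4 and 12.

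Mural transcription factors were divided. Of 10 tested, Tbx2, Foxd1, Zic1 and Zic4 were lower in endothelial nuclei, and Epas1, also in the endothelial list, was higher. Zic1 had 1 endothelial and 28 mural UMIs, and missed the threshold without SwDI/TKO replicate 1 (edgeR adjusted p = 0.0508). Tbx2 had 0 and 13 UMIs, and missed it without SwDI/TWT replicate 1 (edgeR adjusted p = 0.194), as did Foxd1 (edgeR adjusted p = 0.0522). Foxd1 also fell under the filter without the nuclei with Vtn alone. Ebf1, a factor of the mural lineage, had 30 UMIs in endothelial and 85 in mural nuclei and was not called (edgeR adjusted p = 0.391). Without the nuclei with Vtn alone, its log2 fold change was -1.25 (edgeR adjusted p = 0.0340) with the default filter and -1.04 (edgeR adjusted p = 0.107) in the wider test.

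Some genes had more UMIs in mural than endothelial nuclei mostly through 1 library. Trpm3, a cation channel, had 256 mural UMIs and 0 endothelial, and 253 of the 256 lay in SwDI/TKO replicate 1. Pde8b and Plcl1, also among the 10 largest differences, had 69 of 80 and 70 of 77 mural UMIs in that library, and Pde8b missed the threshold without it (edgeR adjusted p = 0.102).

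Malat1, a nuclear long noncoding RNA, made up 84794 CPM of endothelial and 178670 CPM of mural UMIs, with a log2 fold change of -1.41 ± 0.31 (SE, edgeR adjusted p = 4.48e-05). Without SwDI/TKO replicate 1 the log2 fold change was -1.16 in the wider test (edgeR adjusted p = 0.000229).

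The mural gate held 2 sets of nuclei with different transcripts. The split was made after values were seen, and it uses gate genes, so the values are given without a test. In 46 nuclei Vtn came with another gate gene. In 20 it did not, and there Rgs5, Kcnj8, Abcc9, Higd1b, Acta2 and Myh11 are at 0 by construction. Outside the gate, Pdgfrb had 7 UMIs in the 20 nuclei with Vtn alone and 97 in the 46 others, a ratio of CPM of 0.116 with a counting interval of 0.0454 to 0.248. Atp13a5 had 6 and 113 UMIs and Ebf1 4 and 81. Pericyte genes that played no part in the choice were thus sparse in the nuclei with Vtn alone.

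Other genes ran the opposite way. Ptgds, prostaglandin D synthase, had 414 UMIs in the 20 nuclei with Vtn alone and 49 in the 46 others, a ratio of CPM of 13.6 with a counting interval of 10.1 to 18.7. Slc7a11, the cystine-glutamate exchanger, had 124 and 2 UMIs, and was present in 17 of 20 and 1 of 46 nuclei. Errfi1, an inhibitor of EGF receptor signalling, had 108 and 8 UMIs, and Igfbp2, an IGF-binding protein, 16 and 0. Slc7a11, Errfi1 and Igfbp2 were picked after their values were seen.

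The gate allows up to 2 UMIs of 3 fibroblast genes. Fibroblast markers gave 0.293% of UMIs in the 20 nuclei with Vtn alone, with 8 of 9 markers detected and 74 UMIs, and 0.0467% in the 46 others, with 6 of 9 and 19 UMIs. Endothelial nuclei had 0 of 9 and other nuclei of the series 0.00521%. The 6 markers outside the gate gave 59 UMIs (0.233%) in the nuclei with Vtn alone and 11 (0.0271%) in the 46 others. Slc6a13, a fibroblast marker and GABA carrier, had 29 and 7 UMIs, and Pdgfra 12 and 1. Border macrophage markers gave 6 UMIs in the nuclei with Vtn alone and 0 in the 46 others. The part of other cell types in the nuclei with Vtn alone was not tested, and no cell type name is given to them.

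Several calls were lost without the nuclei with Vtn alone. Ptgds was lower in endothelial than mural nuclei with all mural nuclei (log2 fold change -4.27 ± 0.48, edgeR adjusted p = 5.34e-17) but not without those with Vtn alone (edgeR adjusted p = 0.163, wider test). Apod and Cp, a lipocalin and the iron oxidase ceruloplasmin, likewise missed the threshold, at edgeR adjusted p = 0.664 and 0.0704. Lama1, Tagln, Foxd1, Gsn and Slc6a13 could no longer be tested, as they fell under the filter of the wider test. Of the 148 genes called higher in endothelial nuclei, 147 were still tested and 145 still called under total-UMI scaling; of the 152 called lower, 106 and 97.

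The 4 nuclei that passed both gates held UMIs of both kinds of gate gene by the rule: 29 of Cldn5 and 28 of Flt1, and 28 of Rgs5 and 1 of Vtn. Outside the gates they had all 5 endothelial markers, with 25 UMIs, and 1 of 5 pericyte markers, Ndufa4l2 with 3 UMIs. Pdgfrb and Atp13a5 were at 0, and Slc2a1 and Klf2 had 21 and 40 UMIs. Scrublet marked none of the 4.

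Against all other nuclei of the series, endothelial nuclei had 22 of 87 genes higher (25.3%) and 42 lower (48.3%), and mural nuclei 20 higher (23.0%) and 39 lower (44.8%). These splits depend on the scaling. With total UMIs as the scale, 38 were higher and 32 lower for endothelial nuclei, and 37 and 25 for mural nuclei. In the wider test 255 genes were higher (12.2%) and 133 lower (6.38%) in endothelial nuclei, and 267 higher (12.8%) and 107 lower (5.13%) in mural nuclei. Both comparisons use the same other nuclei.

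Some genes were high in both groups of vessel nuclei. Igfbp7, an IGF-binding protein of vessels, reached 2383 CPM in endothelial nuclei, 1243 CPM in mural nuclei and 5.63 CPM in other nuclei, and endothelial and mural nuclei did not differ past the threshold (log2 fold change 0.37 ± 0.46, edgeR adjusted p = 0.641). Itga1, a collagen and laminin receptor, reached 457 CPM in endothelial, 698 in mural and 2.71 in other nuclei. The gap junction gene Gjc1 reached 163 CPM in endothelial, 303 in mural and 0.328 in other nuclei, with 5 endothelial and 20 mural UMIs. Against other nuclei, mural nuclei also showed Slc38a11, an amino acid carrier gene, at 576 CPM in mural and 0.390 CPM in other nuclei, with 0 endothelial UMIs.

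Genes that handle amyloid or cause inherited small vessel disease mostly showed no call. The same held for all genes tested, of which 7.09% were called higher and 7.29% lower in endothelial nuclei. Of 12 tested amyloid handling genes, Abcb1a was higher in endothelial nuclei and 0 were lower. App had 28 UMIs in endothelial and 37 in mural nuclei, or 914 and 561 CPM, against 532 CPM in other nuclei (edgeR adjusted p = 0.351 between endothelial and mural nuclei in the wider test). Whether reads of the human transgene were counted as App was not tested. Lrp1, an amyloid receptor, had 2 and 24 UMIs, and its adjusted p of 0.0607 in edgeR crossed the threshold with TMM scaling, at 0.0239, and was 0.359 without the nuclei with Vtn alone.

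Apoe, the lipoprotein gene, had 122 UMIs in endothelial and 220 in mural nuclei, or 3982 and 3336 CPM, against 442 CPM in other nuclei. Endothelial and mural nuclei did not differ past the threshold with 87 genes tested (log2 fold change -0.58 ± 0.35, edgeR adjusted p = 0.225). Without nuclei with Vtn alone, which held 169 of the 220 mural UMIs, the sign turned, at a log2 fold change of 0.99 (edgeR adjusted p = 0.0586) with the default filter and 1.098 (edgeR adjusted p = 0.0463) in the wider test under total-UMI scaling. Of 11 tested small vessel disease genes, Notch3 and Gsn were lower in endothelial nuclei and 0 higher. Gsn rested on 10 mural UMIs and missed the threshold without the library block (edgeR adjusted p = 0.0620). It fell under the filter without the nuclei with Vtn alone. Cst3 and Itm2b, whose mutations cause other amyloid angiopathies in people, had 56 and 51 endothelial UMIs and 76 and 68 mural UMIs and were not called.

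**Figure D3:**
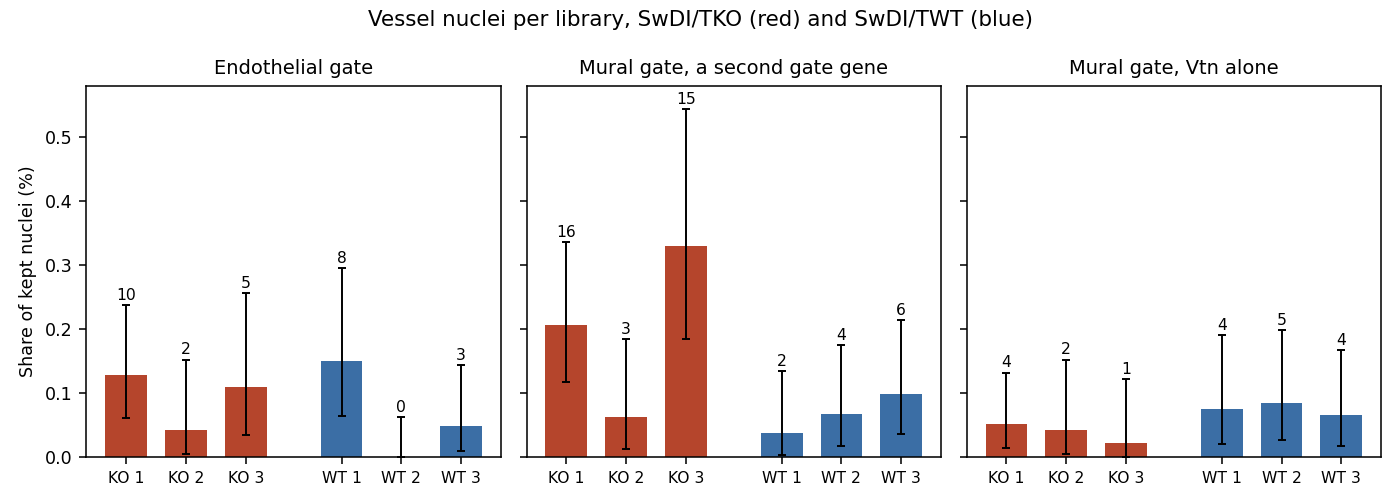
Vessel nuclei as a percentage of kept nuclei in each library, SwDI/TKO replicates in red at the left and SwDI/TWT replicates in blue at the right of each panel; bars are shares, whiskers exact 95% binomial intervals and numbers the nuclei counted. Mural nuclei with a second gate gene reach 0.207% and 0.330% in SwDI/TKO replicates 1 and 3, while the other 4 libraries lie between 0.0375% and 0.0984%.

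Shares of vessel nuclei overlapped between the genotypes. Nuclei are lost in isolation and at the mitochondrial limit, so shares are not vessel densities. Endothelial nuclei made up 0.130%, 0.0423% and 0.110% of kept nuclei in SwDI/TKO libraries, against 0.150%, 0% and 0.0492% in SwDI/TWT libraries. The mean was 0.0940% ± 0.0458 in SwDI/TKO and 0.0663% ± 0.0764 in SwDI/TWT mice (SD, n = 3 each; exact permutation test, two-sided p = 0.7). With 3 mice against 3 the smallest p is 0.1. The 0 of 5852 nuclei in SwDI/TWT replicate 2 allows a share of up to 0.0513% by the limit of 3 counts and 0.0630% by the exact 95% interval. At a mitochondrial limit of 10% that library had 4 endothelial nuclei. Without it the difference turned sign, to -0.00556 percentage points.

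Mural nuclei made up 0.259%, 0.106% and 0.352% of kept nuclei in SwDI/TKO libraries, against 0.112%, 0.154% and 0.164% in SwDI/TWT libraries. The means were 0.239% ± 0.124 and 0.143% ± 0.0273 (SD, n = 3 each; exact permutation test, two-sided p = 0.4), and the groups overlapped through SwDI/TKO replicate 2. The 95% exact intervals of single libraries were wide, such as 0.0344% to 0.247% in that library. Nuclei with Vtn alone were 4 of 20, 2 of 5 and 1 of 16 mural nuclei in SwDI/TKO libraries, against 4 of 6, 5 of 9 and 4 of 10 in SwDI/TWT libraries. The SwDI/TKO mural sum therefore held fewer such nuclei, 7 of 41 against 13 of 25. Without them the mural shares averaged 0.200% in SwDI/TKO and 0.0681% in SwDI/TWT mice (exact permutation test, two-sided p = 0.3). With the mitochondrial limit at 10%, all mural nuclei averaged 0.236% in SwDI/TKO and 0.215% in SwDI/TWT mice. They lay 0.0212 percentage points apart, against 0.0956 at the 5% limit. After thinning to 1000 UMIs the means were 0.08635% and 0.06529%, 0.02105 points apart. The difference was 0.102 points without doublets, 0.103 with the stricter gate and 0.09845 without the 0.3% limit. It stayed at 0.0956 with nuclei of both gates assigned. Endothelial nuclei per mural nucleus, in log2 with 0.5 added to each count, averaged -1.23 in SwDI/TKO and -1.82 in SwDI/TWT mice (exact permutation test, two-sided p = 0.8).

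Genotype was not tested on gene levels within vessel nuclei, because some libraries gave 0 to 5 nuclei of a kind. The values per library are descriptions. Cldn5 reached 1713, 1927 and 2280 CPM in endothelial nuclei of SwDI/TKO replicates 1 to 3, against 7653 and 5999 CPM in SwDI/TWT replicates 1 and 3. Flt1 reached 7149, 5138 and 6586 CPM, against 3460 and 4153 CPM. These are gate genes, whose levels the rule used, and both sets of libraries stood apart for each. SwDI/TKO replicate 2 held 2 endothelial nuclei with 1557 UMIs, and its Cldn5 value rests on 3 UMIs of 1 nucleus. How many of all genes stand apart between the genotypes was not counted. No genotype difference is therefore read from these genes or those below. The median mitochondrial share of endothelial nuclei also stood apart, at 1.25%, 1.08% and 3.52% in SwDI/TKO libraries, against 4.08% and 4.19% in SwDI/TWT libraries. Its part in these differences was not tested.

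Outside the gate, Bsg ran in the same sense as Cldn5, with the CPM given above lower in all 3 SwDI/TKO libraries than in the 2 SwDI/TWT libraries. The share of all genes that do so was not counted. Slc2a1 overlapped, at 4021, 1284 and 2026 CPM in SwDI/TKO libraries against 3145 and 2307 CPM in SwDI/TWT libraries. Klf2 overlapped too, at 3351, 2569 and 4813 CPM against 5032 and 3230 CPM. Slco1a4 was higher in SwDI/TKO libraries, at 4543, 1927 and 4813 CPM against 1572 and 1384 CPM, with SwDI/TKO replicate 2 and SwDI/TWT replicate 3 resting on 3 UMIs each. Apoe overlapped, at 894, 1927 and 5572 CPM in SwDI/TKO libraries against 8596 and 1384 CPM in SwDI/TWT libraries.

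**Figure D4:**
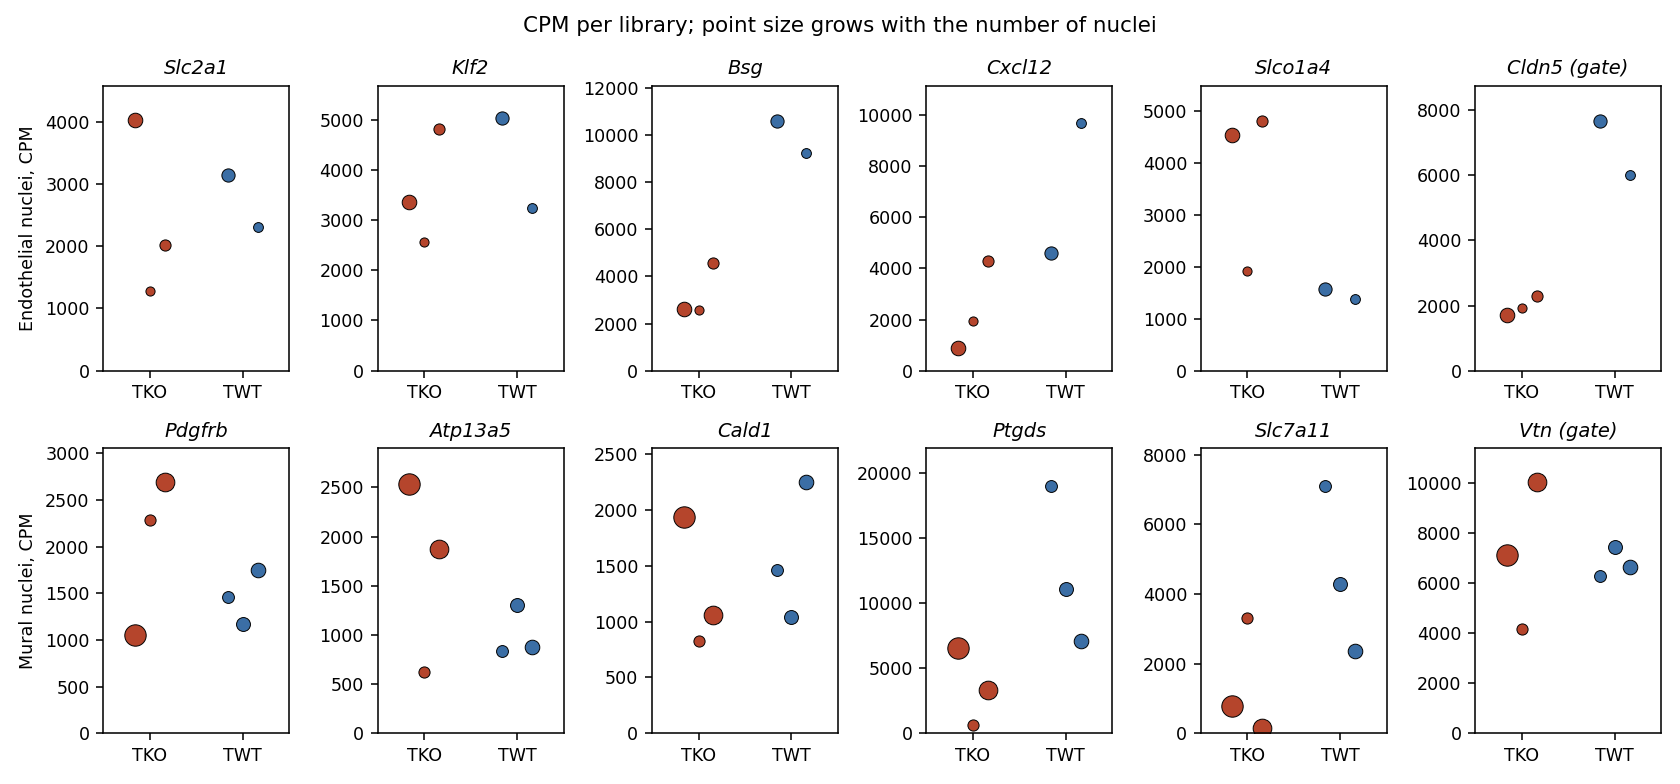
CPM per library of 6 genes in endothelial nuclei (top row) and 6 in mural nuclei (bottom row), SwDI/TKO libraries in red at the left and SwDI/TWT libraries in blue at the right of each panel; point size grows with the number of nuclei, and SwDI/TWT replicate 2 has no endothelial point. Bsg and Cldn5 lie lower in SwDI/TKO than SwDI/TWT libraries, while Slc2a1, Klf2, Pdgfrb and Vtn overlap. How many of all genes lie apart in this way was not counted.

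In mural nuclei Pdgfrb and Vtn overlapped between genotypes. Pdgfrb reached 1057, 2284 and 2692 CPM in SwDI/TKO libraries, against 1460, 1172 and 1749 CPM in SwDI/TWT libraries. Vtn, the main gate gene, reached 7115, 4153 and 10032 CPM, against 6258, 7421 and 6621 CPM. Ptgds was lower in SwDI/TKO mural nuclei, at 6551, 623 and 3344 CPM against 18982, 11066 and 7120 CPM. Among the mural nuclei with a second gate gene it overlapped, at 1840, 0 and 613 CPM in SwDI/TKO libraries against 1610, 593 and 822 CPM in SwDI/TWT libraries.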

How the data were processed

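Nuclei of 6 mouse frontal lobes were sequenced in droplets with a 3' chemistry, per the labels' protocols. The authors deposited a matrix of UMI counts per library, made with Cell Ranger 7.0.0 for SwDI/TKO replicate 1 and 6.1.2 for the other 5 libraries, per the file headers. Genome build mm10 and Seurat are named in the submitters' processing notes. The version gap can change how intron reads are counted and cannot be told apart from that mouse.

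From these counts, barcodes were filtered and gated, doublets were scored with Scrublet (scanpy 1.11.5) and left in, and counts were summed per library over endothelial, mural and all other nuclei. The sums were tested with edgeR 4.0.16 (default filter, TMM, library as block, quasi-likelihood, Benjamini-Hochberg, threshold 0.05). Same-library sums come from the same mouse, which is where the pairing comes from. The wider test (at least 10 UMIs, total-UMI scaling and TMM both past the threshold) was added after the data were seen, because the default filter left 87 genes, and TMM shifted unchanged genes in simulated data under the wider filter. TMM on all genes was tried and dropped, since its factors followed depth. The simulated data were used for the edgeR test of endothelial against mural sums. Their other nuclei had the gene profile of vessel nuclei, unlike the real ones. Shares were compared by exact permutation over mice, with Clopper-Pearson 95% intervals. Intervals and the floor of 3 UMIs cover counting error only. List medians use log2 ratios of CPM with that floor.

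The nuclei, gene lists and tests were chosen with earlier results of these data known. Named genes were the 10 largest differences of each contrast past the threshold with the same sign in every library with a UMI, and the list members with the smallest p. B2m, Car4, Col4a1, Errfi1, Igfbp2, Insr, Lamc1, Nrp2, Pdgfra, Slc3a2, Slc6a13, Slc7a11 and Tfrc fall outside that rule and were chosen after their values were seen; alternatives were computed for these too. Gene positions of the files match GENCODE M21 for 32235 of 32285 genes. Alternatives were other scalings, filters, gates, doublet treatment, thinning to 1000 UMIs, DESeq2 1.42.0 and leaving out each library. Results of some genes that the rule names are not reported here.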

Additional observations from a re-analysis of the deposited data

How the results depend on the processing

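With no filter on low counts 251, 5386 and 4321 genes were called in endothelial against mural, endothelial against other and mural against other nuclei, of 27106 tested, and 351, 835 and 654 with at least 10 UMIs under TMM. Leaving out 1 library gave 16 to 39, 37 to 74 and 37 to 67 calls, each lowest without SwDI/TKO replicate 1 (16, 37 and 37). The wider endothelial against mural test called 344 genes under total-UMI scaling alone, and 117 to 354 when 1 library was left out, lowest without SwDI/TKO replicate 1. Without the library as replicate block, 27, 63 and 58 of 87 genes were called, within 1.5 times the counts with it. Total-UMI scaling moved the median log2 fold change of the 87 genes to -0.02, 0.29 and 0.47, against -0.26, -0.88 and -0.46 under TMM. The other settings kept these counts within 1.5 times.

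Leaving out 1 library, the genotype difference (knockout minus wild type) ran from -0.00556 to 0.0694 percentage points for endothelial and from 0.0391 to 0.162 for mural shares. For log2 endothelial nuclei per mural nucleus it ran from -0.63, without SwDI/TWT replicate 2, to 1.69, and it was -0.11 without nuclei with Vtn alone. Over 124 named genes, 36 alternative values turned sign, none of a called gene. These log2 values, with the range when 1 library was left out where that turned the sign, were as follows. Cst3 gave -0.39 without a filter, -0.0182 with at least 10 UMIs, -0.0892 with the stricter gate and -0.10 to 0.58. Itm2b gave -0.33 without a filter and -0.0657 with the stricter gate, and Sparcl1 -0.13 without a filter. Igfbp7 gave -0.14 without a filter, -0.17 with the stricter gate, -0.21 without nuclei with Vtn alone and -0.26 to 1.23. Apoe gave 0.99 without nuclei with Vtn alone. The left-out range was -0.87 to 0.30 for Ebf1, -2.03 to 0.52 for Col4a1, -0.27 to 1.12 for Myl6 and -0.39 to 0.33 for Picalm. Hes1 gave -0.23 under TMM, -0.45 without nuclei with Vtn alone, -0.14 with nuclei of both gates assigned, -1.14 with the stricter gate and -0.76 to 0.78. Notch1 gave -0.24 under TMM, -0.33 without nuclei with Vtn alone, -0.0361 with nuclei of both gates assigned, -0.19 with the stricter gate and -0.87 to 0.86. Slc22a8 gave -0.39 under TMM, -0.0823 without nuclei with Vtn alone, -0.0219 without doublets, -0.336 with nuclei of both gates assigned, -0.0348 without the replicate block, -0.0922 with the stricter gate and -0.40 to 0.62. The causes were not tested. Depth limits the members: 3 UMIs correspond to 97.9 CPM in the endothelial and 45.5 CPM in the mural sum.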
